A study of Mus musculus with 6 samples.

Results

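Immediate early genes are switched on within a short time of a stimulus, without new protein synthesis. Followed here in obstructed mouse ureters were 10 immediate early and AP-1 genes (AP-1 is described below): Fos, Fosb, Fosl1, Jun, Junb, Jund, Atf3, Egr1, Ier2 and Ier3. Not all 10 meet that definition: Jund, for example, is made constitutively in many cells. They were chosen by gene name, and all 10 were measured, among 22260 genes that were tested after a filter on dim probes. Each ureter came from a mouse on a C57BL/6N background, 2 months old, 4 days after unilateral ureteral obstruction (UUO), in which the ureter of 1 side is closed so that urine backs up behind it. The wild-type group (Col17a1-WT) held 3 samples, all male, and the Col17a1-KO group held 3, of which KO replicate 3 was female. RNA of each ureter was hybridised to a 1-colour Agilent array. All 6 ureters were obstructed, so the values show differences between genotypes under obstruction and not the response to obstruction itself. The labels do not say how the Col17a1 allele was made or in which cells it was removed.

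Fos and Jun proteins pair through leucine zippers into AP-1, a transcription factor that binds short DNA motifs in genes of matrix breakdown, proliferation and inflammation. Growth factors, stretch, wounding and cytokines act through MAP kinases, serum response factor and CREB to raise transcription of Fos, Jun and Egr1, and the messages are short-lived. In epithelium, Fosl1 is associated with migration and wound repair. The same genes also respond to the handling of tissue after its removal.

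The promoters were searched for motifs of these pathways, where a match describes the letters and does not show a bound site. RefSeq (GRCm38.p6) gave an entry for 7 of the 10 genes, and Egr1, Fosl1 and Ier2 had none in the table used. In the 250 bases upstream of the start site, 6 motifs were searched: the short CRE motif TGACG, the full CRE TGACGTCA (which holds the short motif), the AP-1 site TGANTCA, the EGR site GCGNGGGCG and the CArG box, each on both strands, and the TATA box TATAAA on the gene's strand only. A short CRE motif lay in 4 of the 7, against 17.8% of all 32851 promoters of the same length. A TATA box was found in 1 of the 7 (7.59% of all), an EGR site in 1 (4.7%), and an AP-1 site (6.75%), a full CRE (1.55%) and a CArG box (1.47%) in none. Sites farther upstream or with other letters were not searched, so a motif not found here may still be present. These 4 promoters are printed 5′ to 3′ on the gene's strand because they hold the short CRE motif, and the capitals mark every motif match. They lie at chr12:85473640-85473889 (Fos, + strand), chr7:19310046-19310295 (Fosb, - strand), chr8:84978749-84978998 (Junb, - strand) and chr1:191183334-191183583 (Atf3, - strand). The last run of capitals is the EGR site in Fosb and the TATA box in Fos. In Fos the short CRE motif starts 129 and 66 bases before the start site, in Junb 106, in Fosb 60 and in Atf3, on the opposite strand, 7.
Fos: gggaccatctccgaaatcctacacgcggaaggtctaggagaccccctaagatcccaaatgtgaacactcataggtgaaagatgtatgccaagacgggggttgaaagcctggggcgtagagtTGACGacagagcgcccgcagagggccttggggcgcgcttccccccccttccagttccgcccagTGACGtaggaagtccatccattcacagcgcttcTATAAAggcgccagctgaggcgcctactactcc
Fosb: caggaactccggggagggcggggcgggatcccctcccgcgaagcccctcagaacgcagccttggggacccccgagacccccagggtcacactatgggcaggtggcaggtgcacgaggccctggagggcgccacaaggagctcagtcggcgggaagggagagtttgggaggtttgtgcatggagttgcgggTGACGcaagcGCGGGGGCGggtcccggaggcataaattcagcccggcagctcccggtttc
Junb: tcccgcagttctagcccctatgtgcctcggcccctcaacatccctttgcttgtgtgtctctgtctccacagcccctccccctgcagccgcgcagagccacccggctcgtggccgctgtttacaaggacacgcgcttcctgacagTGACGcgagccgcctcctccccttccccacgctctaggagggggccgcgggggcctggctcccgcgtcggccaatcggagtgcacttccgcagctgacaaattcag
Atf3: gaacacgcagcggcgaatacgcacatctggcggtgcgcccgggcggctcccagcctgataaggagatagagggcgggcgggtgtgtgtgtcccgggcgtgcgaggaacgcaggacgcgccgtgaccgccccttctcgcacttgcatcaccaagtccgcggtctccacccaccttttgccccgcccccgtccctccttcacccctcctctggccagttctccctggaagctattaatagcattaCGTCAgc

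Each gene was read by a probe of the design placed on mm9: Fos at chr12:86818118-86818177, Fosb at chr7:19888168-19888227, Fosl1 at chr19:5455496-5455555, Jun at chr4:94716928-94716987, Junb at chr8:87500843-87500902, Jund at chr8:73224436-73224495, Atf3 at chr1:192994547-192994606, Egr1 at chr18:35024395-35024454, Ier2 at chr8:87185211-87185245 and Ier3 at chr17:35959528-35959587. Promoter and probe positions are on different builds and cannot be set against each other.

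The arrays were checked before the 10 genes were compared. Values are log2 processed signals minus the 75th percentile of the same array, so a step of 1 is a doubling, and levels of different genes are not set against each other. All 12 urothelial and all 8 smooth muscle markers were well above background on all 6 arrays. WT replicate 2 stood apart in kidney transcripts, since Slc34a1, which carries phosphate in proximal tubules, read -0.69 there and between -4.99 and -4.29 elsewhere. Col17a1 was not lower in the KO-labelled ureters (mean 0.48 against -1.17, difference 1.65 ± 0.48 SE, adjusted p = 0.457). Where in Col17a1 the allele was changed is not given, so whether the probe lies inside or outside that stretch is not known. Every direction below rests on the labels, and the group is called KO-labelled.

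None of the 10 genes passed an adjusted p of 0.05 between genotypes (limma, 3 arrays against 3), and none had an unadjusted p under 0.05. Over all 22260 genes the shares were 0% and 9.06%. An unadjusted p under 0.05 was found for 1 of the 10 without KO replicate 3, without WT replicate 2 or with a sex covariate, and for 2 with array weights or without both WT replicate 2 and KO replicate 3. The count over all genes, 2017, was 1117 without KO replicate 1, 1142 without KO replicate 2, 3128 without KO replicate 3, 3060 with the sex covariate and 6086 with array weights. It was 1385 without WT replicate 2 and 2257 without both WT replicate 2 and KO replicate 3. The values of the 2 groups overlapped for all 10, whereas they did not overlap for 15.4% of all genes. Of the 10, 6 had a lower mean in KO-labelled ureters, close to the 50.2% of all genes that did. Adjusted p-values ran from 0.693 for Atf3 to 0.996 for Egr1. An exact permutation test of 3 against 3 cannot go below p = 0.1, and for these genes it gave 0.3 at the lowest, for Fos and Jun.

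**Figure D1:**
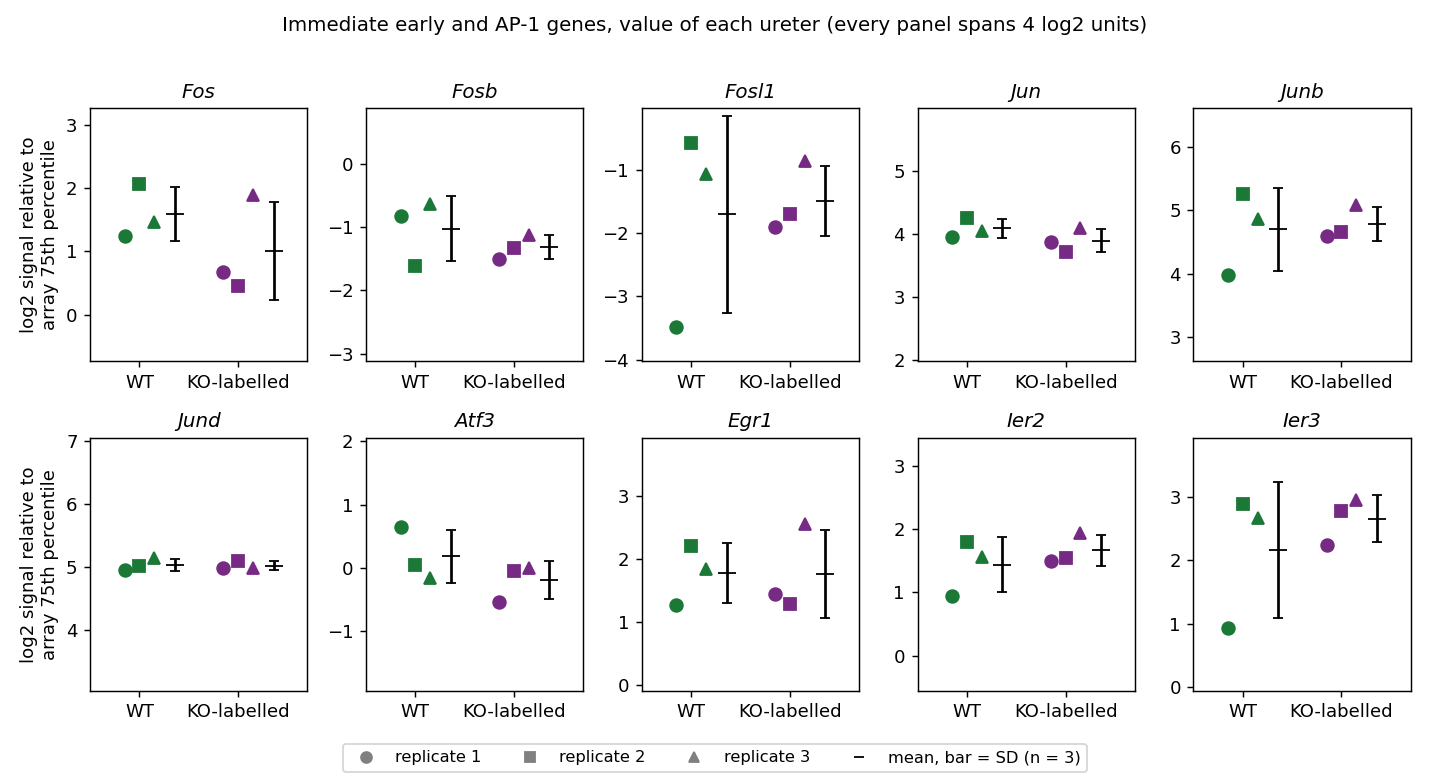
Value of each ureter for the 10 genes, as log2 signal relative to the array's 75th percentile, in WT (green) and KO-labelled (purple) ureters; symbols give the replicate number and the black bar the mean and SD of 3 arrays. Every panel spans 4 log2 units, and the groups overlap in each, with WT replicate 1 (green circle) far below the rest for Fosl1, Junb, Ier2 and Ier3.

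Among the Fos family, Fos itself, the partner of Jun in the classical AP-1 dimer, had the lowest difference of the 10. Its values were 1.25, 2.07 and 1.46 in WT replicates 1 to 3, and 0.67, 0.46 and 1.89 in KO replicates 1 to 3. KO replicates 1 and 2 lay below every WT ureter, while KO replicate 3, the female, fell between the WT values. The means were 1.59 ± 0.42 and 1.01 ± 0.77 (SD, n = 3 each), a difference of -0.59 with a 95% interval from -1.59 to 0.42 (adjusted p = 0.708). A lower difference was found for 3.63% of all genes, and a smaller range over the 6 arrays for 92.8%. The SE of Fos was 0.41, against a median SE of 0.16 over all genes, so its rank also reflects its spread. Without KO replicate 3 the difference was -1.03 ± 0.27 (SE) with an adjusted p of 0.22, and without WT replicate 2 it was -0.35.

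Fosb, a Fos relative that also exists as a shortened, longer-lived protein, was read by 2 probes. The brighter gave -0.83, -1.61 and -0.63 in WT and -1.5, -1.33 and -1.12 in KO-labelled ureters. The lowest of these 6 values was that of WT replicate 2, the ureter with kidney transcripts, and the other 2 WT ureters lay above all 3 KO-labelled ones. The difference was -0.29 (95% interval -0.94 to 0.36, adjusted p = 0.776), and -0.58 ± 0.16 (SE, adjusted p = 0.8) without WT replicate 2. The second probe did not clear background on any of the 6 arrays.

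Fosl1, which encodes Fra-1, an AP-1 subunit of migrating and wounded epithelium, varied most. Its values were -3.48, -0.57 and -1.06 in WT and -1.90, -1.70 and -0.86 in KO-labelled ureters. WT replicate 1 stood below the other 5 arrays, and the highest array exceeded the lowest 7.47-fold. A smaller range than that of Fosl1 was found for 98.9% of genes. The difference of 0.22 (95% interval -1.64 to 2.07, adjusted p = 0.954) turned to -0.67 ± 0.35 (SE, adjusted p = 0.492) without WT replicate 1 and to -0.10 without KO replicate 3, and was -0.02 with another background correction.

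Among the Jun family, which can pair with itself as well as with Fos proteins, the genes ranged from the steadiest of the 10 to a variable one. Jun had values of 3.96, 4.26 and 4.05 in WT and 3.88, 3.72 and 4.09 in KO-labelled ureters. KO replicates 1 and 2 were again the lowest, but the step was small: the difference was -0.19 (95% interval -0.54 to 0.15, adjusted p = 0.723). Jund, a Jun relative made constitutively in many cells, lay between 4.95 and 5.14 on all 6 arrays. That is a 1.14-fold range, and 4.76% of genes had a smaller one. Its difference was -0.01 with a 95% interval from -0.26 to 0.24, and the sign changed with the scaling. The second Jund probe, which gave -0.04, also showed little difference between groups.

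Junb, an immediate early Jun relative with weaker transactivation than Jun, had values of 3.97, 5.26 and 4.87 in WT and 4.59, 4.66 and 5.09 in KO-labelled ureters. WT replicate 1 was the lowest and the 3 KO-labelled values lay between the WT extremes. The difference was 0.08 (95% interval -0.74 to 0.91, adjusted p = 0.962), and -0.28 without WT replicate 1 and -0.07 without KO replicate 3. A second Junb probe kept the same order at the low end. Its signal lay below that of the first by 6.12 to 6.53 log2 units on every array. Another probe named for Junb did not clear background on any of the 6 arrays.

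Atf3, a stress-induced bZIP factor that often represses transcription, had its highest value in WT replicate 1. Its values were 0.65, 0.05 and -0.16 in WT and -0.54, -0.05 and 0.00 in KO-labelled ureters. WT replicate 1, the lowest array for Fosl1, Junb, Jund, Egr1, Ier2 and Ier3, was the highest for Atf3. The difference was -0.38 (95% interval -1 to 0.24, adjusted p = 0.693), and -0.14 without WT replicate 1.

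Egr1, a zinc finger factor induced by growth signals and mechanical stress, had values of 1.27, 2.21 and 1.84 in WT and 1.45, 1.28 and 2.56 in KO-labelled ureters. The highest value was that of KO replicate 3, and the low values were shared by WT replicate 1 and KO replicates 1 and 2. The means were 1.78 ± 0.47 and 1.76 ± 0.70 (SD, n = 3 each), a difference of -0.01 with a 95% interval from -0.98 to 0.95. The sign changed when WT replicate 2 or 3 or KO replicate 1 or 2 was left out, and with median scaling.

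Of the other immediate early response genes, Ier2, a nuclear protein of the early serum response, had values of 0.95, 1.80 and 1.56 in WT and 1.5, 1.55 and 1.94 in KO-labelled ureters. Its difference was 0.22 (95% interval -0.38 to 0.83, adjusted p = 0.814), and -0.02 without WT replicate 1. The second probe named for Ier2 had a difference of the other sign, -0.20. Ier3, a stress- and NF-kB-induced regulator of cell survival, had values of 0.93, 2.90 and 2.67 in WT and 2.25, 2.79 and 2.95 in KO-labelled ureters. WT replicate 1 was below the other 5 arrays, which lay between 2.25 and 2.95. The difference of 0.50 (95% interval -0.79 to 1.78, adjusted p = 0.809) was -0.12 ± 0.23 (SE) without WT replicate 1.

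**Figure D2:**
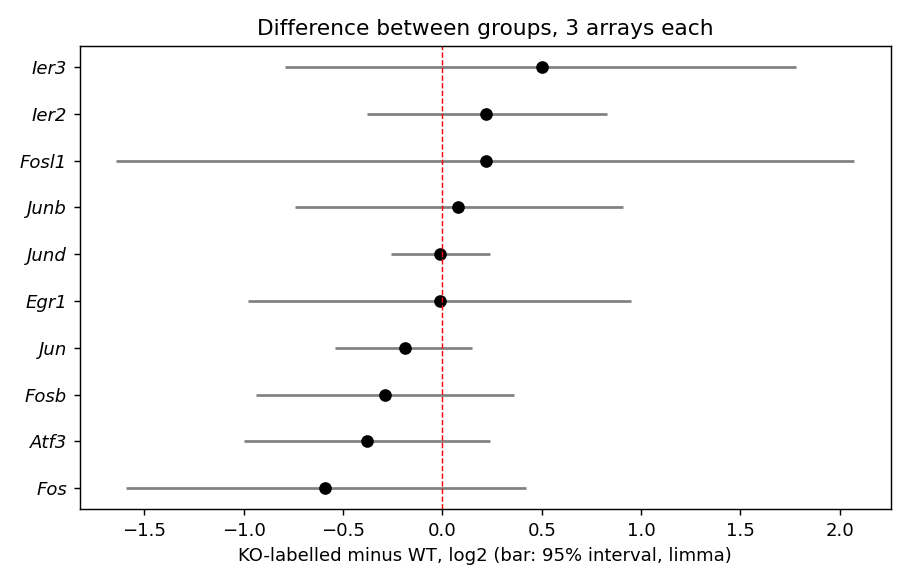
Difference of each gene, KO-labelled minus WT, in log2 units (points) with its 95% interval from limma (bars), 3 arrays per group, ordered by size from Fos at -0.59 to Ier3 at 0.50. All 10 intervals include 0; that of Jund is the narrowest and that of Fosl1 the widest.

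The arrays differed in the level of the 10 genes within each group. WT replicate 1 had the lowest value for 6 of the 10 genes, and for 29.6% of all genes. For 2 of the 6 the margin was small: Jund was 4.95 against 4.98 in KO replicate 1, and Egr1 was 1.27 against 1.28 in KO replicate 2. The mean deviation of the 10 genes from their own 6-array means was -0.44 in WT replicate 1, -0.26 in KO replicate 1 and -0.15 in KO replicate 2. It was 0.34 in WT replicate 2, 0.17 in WT replicate 3 and 0.35 in KO replicate 3. High and low ureters thus occurred in both groups. All 10 genes were below their own mean in KO replicate 1, and 9 of 10 were above it in WT replicate 3 and in KO replicate 3. Some of these deviations were small: -0.05 for Jund and Ier2 in KO replicate 1, 0.01 for Ier2 in WT replicate 3 and 0.01 for Atf3 in KO replicate 3.

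**Figure D3:**
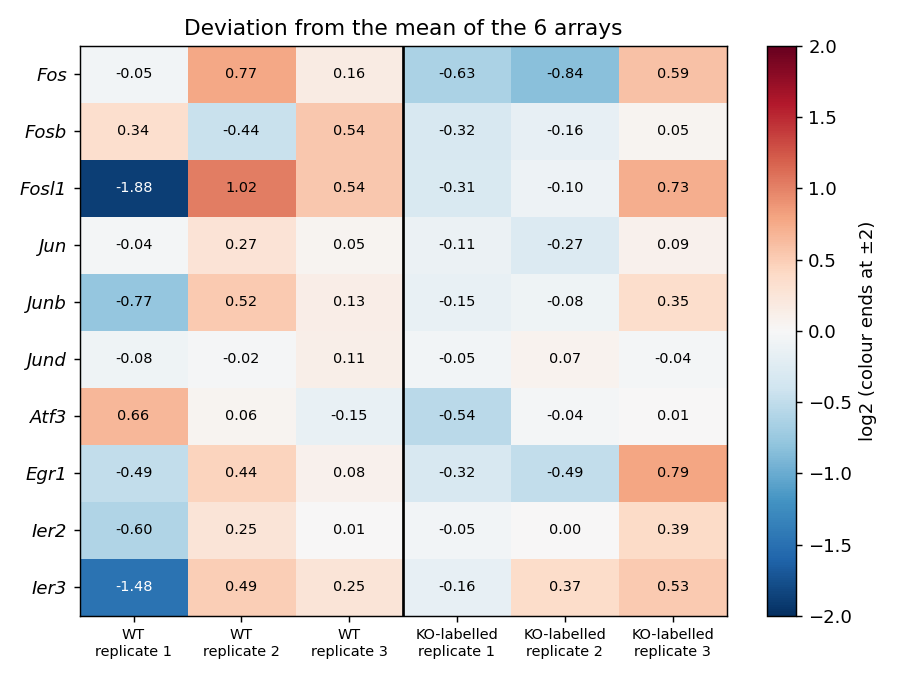
Deviation of each gene from its mean over the 6 arrays, in log2 units, by array (columns) and gene (rows); blue is below and red above the mean. WT replicate 1 is at -1.88 for Fosl1 and -1.48 for Ier3 but at 0.66 for Atf3, and the columns of KO replicates 1 and 2 are both blue for Fos and Egr1.

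The profiles of the 10 genes over the 6 arrays fell into different shapes. The likeness of 2 genes was measured as the root mean square difference of their centred log2 values, where 0 is the same profile. Junb and Ier2 were closest at 0.15, followed by Jun and Jund at 0.20, a pair in which both varied little. Fos was closest to Egr1, at 0.31, and Fosl1 to Ier3, at 0.37. Atf3 was closest to Jun, also at 0.37, but Jun varied little. In WT replicate 1, Atf3 was 0.66 above its own mean while Jun was at -0.04, so that distance does not show a shared shape. These are descriptions of 6 arrays with a shared scaling.

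Outside the 10 genes, the profiles nearest to Fos and Fosl1 were sought among 15337 RefSeq-matched genes well above background on all 6 arrays. Among the nearest to Fos were Dennd1c at 0.06, Cd52, a surface glycopeptide of leukocytes, at 0.09, and Pira1, a receptor of myeloid cells, and Aldh3b1, an aldehyde dehydrogenase, each at 0.10. Pira1 belongs to a family of near-identical genes, so its probe may read several of them. Cd52 had values of 5.17, 6.04 and 5.56 in WT and 4.65, 4.49 and 5.69 in KO-labelled ureters. As for Fos, KO replicates 1 and 2 were below every WT ureter and KO replicate 3 was not, which follows from choosing genes by their likeness to Fos. Among the nearest to Fosl1 were Agxt at 0.21, Tgm1, a transglutaminase of stratified epithelium, at 0.21, Il1r2, a decoy receptor for interleukin 1, at 0.25, and Il4ra, a subunit of the interleukin 4 receptor, at 0.27.

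**Figure D4:**
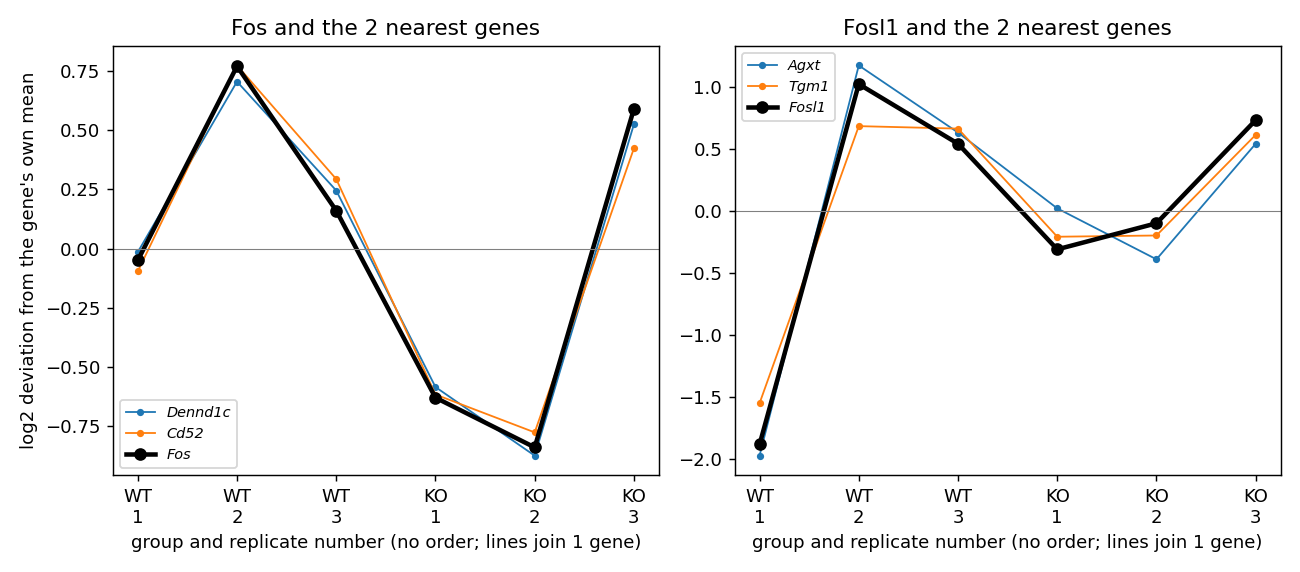
Centred log2 values of Fos (left, black) and Fosl1 (right, black) over the 6 arrays, with the 2 nearest genes of each; arrays have no order and lines only join the values of 1 gene. Fos and its neighbours are lowest in KO replicates 1 and 2, and Fosl1 and its neighbours are lowest in WT replicate 1. The neighbours were chosen for this likeness.

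Summed markers of some cell types had the same lowest arrays as Fos or Fosl1, and those of others did not. The summed signal of 8 macrophage markers, in units of the array's 75th percentile, ranged from 295 to 343 in WT and from 184 to 263 in KO-labelled ureters, with KO replicates 1 and 2 lowest, as for Fos. Itgam, 1 of these 8, had its highest value, 4.66, in KO replicate 2. The sum of 8 neutrophil markers ranged from 127 to 294 in WT and from 142 to 293 in KO-labelled ureters, with WT replicate 1 lowest, as for Fosl1 and Ier3. Single neutrophil markers differed from the sum. Camp, at 1.17, Ltf, at 1.99, and Ly6g, at 0.34, were above WT in KO-labelled ureters, without overlap and with an unadjusted p under 0.05. No neutrophil marker had such a p in the other direction, and the lowest adjusted p of the list was 0.398. Of the 8 macrophage markers, 6 had such a p, all lower, and 6 did not overlap. Of the 12 urothelial markers, 6 had such a p, all higher, and 4 did not overlap. No smooth muscle, fibroblast or endothelial marker had such a p. Over all genes, 9.06% had such a p and 15.4% did not overlap. The mean deviation of 6 endothelial markers was highest in KO replicate 2, at 0.40, and that of 6 fibroblast markers in WT replicate 1, at 0.21. The sum of 12 urothelial markers ranged from 226 to 321 in WT and from 383 to 569 in KO-labelled ureters, and that of 8 smooth muscle markers from 308 to 499 and from 416 to 625. All 12 urothelial markers had a higher mean in KO-labelled ureters, but single ones differed from the sum. Upk1a, Upk2 and Upk3a were higher in WT replicate 1 than in KO replicates 2 and 3, for Upk3a 5.38 against 4.53 and 4.15. The 6 measured kidney markers summed to 2.91 in WT replicate 2 and to 0.508 to 0.609 in the other 5 ureters. Every measured marker of macrophages, neutrophils, urothelium and smooth muscle cleared background on all 6 arrays, and 5 of the 6 kidney markers did. In whole ureters, fewer cells of a type and less RNA per cell cannot be told apart. The part of these cell types in the values of the 10 genes was not tested.

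All 20 other bZIP factors of the list, of which many can pair with Fos or Jun proteins, were measured. Of these, 12 were lower and 8 higher in KO-labelled ureters, with a median difference of -0.11 beside 0.00 over all genes, and none passed the adjusted threshold. An unadjusted p under 0.05 was found for 4 of the 20, against 9.06% of all genes, and 3 of the 4 were lower. The other one, Mafk, a small Maf factor, was higher by 0.40, and Maff, another small Maf factor, by 0.58, both without overlap between the groups. Mafg, also a small Maf factor of the list, differed by -0.12 with overlap. These small Maf factors were picked after their values were seen. The groups did not overlap for 4 of the 20, against 15.4% of all genes, and 1 of these 4, Batf3, was lower, at -0.30. Creb1, the factor that binds CRE motifs, differed by -0.28 ± 0.10 (SE, adjusted p = 0.513), and its values did not overlap between groups. Maf, a large Maf factor of macrophages and other cells, differed by -0.56 ± 0.21, and Batf, a Jun partner of immune cells, by -0.59 ± 0.23. For Maf and Batf, KO replicate 3 was not below every WT ureter.

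Of 45 other immediate early genes, 44 were measured (28 higher, 16 lower, median 0.08), and none passed. Gadd45b, a stress sensor upstream of p38 and JNK, was the best ranked, at -0.31 ± 0.10 (SE, adjusted p = 0.47). It had values of 1.93, 1.79 and 1.90 in WT and 1.59, 1.59 and 1.51 in KO-labelled ureters, so every KO-labelled value was below every WT value. Id1, an inhibitor of bHLH factors, differed by 0.52 ± 0.21 and Sgk1, a kinase induced by serum and glucocorticoid, by 0.34 ± 0.14. WT replicate 1 had the lowest value for 22 of these 44 genes.

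Upstream of AP-1, 29 of 30 kinases and Ras proteins were measured, 16 higher and 13 lower with a median of 0.02, and none passed. Of the 29, 3 had an unadjusted p under 0.05 (9.06% of all genes). The groups did not overlap for 8 (15.4% of all genes). Mapk13, the p38 delta kinase of epithelia, differed by 0.70 ± 0.15 (SE, adjusted p = 0.418), with values of 0.84, 1.01 and 1.16 in WT and 1.72, 1.89 and 1.51 in KO-labelled ureters. The 2 groups did not overlap. The means of the urothelial markers, given above, were also higher in KO-labelled ureters, and a link between these and Mapk13 was not tested. Rps6ka3, the kinase RSK2 downstream of ERK, differed by -0.35 ± 0.12 and Hras by 0.38 ± 0.13. All 11 SRF, TCF and CREB cofactors were measured, 4 higher and 7 lower (median -0.03), and none passed. Of the 11, 4 had an unadjusted p under 0.05, 2 higher and 2 lower, and the groups did not overlap for 5. Over all genes the shares were 9.06% and 15.4%. Crebbp, the CREB-binding acetyltransferase, differed by -0.27 ± 0.11, Mrtfa, an actin-regulated partner of SRF, by -0.25 ± 0.10, and Srf by 0.31 ± 0.12 (lowest adjusted p = 0.535).

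Of 19 feedback phosphatases and inhibitors, which act on the kinases or, like Cop1, Fbxw7 and Nab2, on Jun or Egr proteins, 17 were measured, 9 higher and 8 lower with a median of 0.00, and none passed. Dusp14, a MAP kinase phosphatase, differed by 0.59 ± 0.15 (SE, adjusted p = 0.438) without overlap between the groups, Dusp8 by 0.31 ± 0.14 and Dusp4 by 0.27 ± 0.14.

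Genes reported as AP-1 targets in epithelium and matrix had low values in WT replicate 1 and KO replicate 1. Of 30, 29 were measured, 15 higher and 14 lower in KO-labelled ureters with a median of 0.02, and none passed. That median was -0.38 without WT replicate 1, -0.12 without KO replicate 3, 0.24 without WT replicate 2, 0.18 without WT replicate 3 or KO replicate 1, 0.08 without KO replicate 2 and -0.51 with array weights. Sprr1a, a cornified envelope precursor, differed by 0.83 ± 0.25 (SE, adjusted p = 0.458), Mmp12, the macrophage elastase, by -1.19 ± 0.44, and Areg, an EGF receptor ligand, by 1.23 ± 0.60. The lowest value was that of WT replicate 1 for 18 of the 29 and of KO replicate 1 for 9. The mean deviation of the list was -1.01 in WT replicate 1 and -0.54 in KO replicate 1, against 0.53 in WT replicate 2, 0.51 in WT replicate 3, 0.11 in KO replicate 2 and 0.40 in KO replicate 3. Ereg, an EGF receptor ligand, and Il6, an inflammatory cytokine, were picked after their values were seen. Ereg had values of -4.08, 1.31 and 0.39 in WT and -1.67, -1.35 and 0.42 in KO-labelled ureters, and Il6 had -0.87, 3.38 and 2.51 in WT and 0.29, 0.83 and 2.85 in KO-labelled ureters. Both repeated the order of Fosl1 at the low end, with WT replicate 1 lowest.

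All 11 heat shock genes, chaperones that also respond to tissue handling, were measured, 9 lower and 2 higher in KO-labelled ureters with a median of -0.30, and none passed. An unadjusted p under 0.05 was found for 3 of the 11, all lower, against 9.06% of all genes. The groups did not overlap for 6 of the 11, against 15.4% of all genes. Hsph1, a co-chaperone of HSP70, differed by -1.02 ± 0.20 (SE, adjusted p = 0.418), with values of 2.55, 3.03 and 3 in WT and 1.82, 1.55 and 2.14 in KO-labelled ureters. Dnaja1 differed by -0.33 ± 0.11 and Hspa8 by -0.30 ± 0.12 (SE). The mean deviation of the list was -0.04 in WT replicate 1, below the 0.22 and 0.30 of the other WT ureters and above the -0.19 to -0.13 of the KO-labelled ureters. The part of tissue handling in the values of the 10 genes was not tested.

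**Figure D5:**
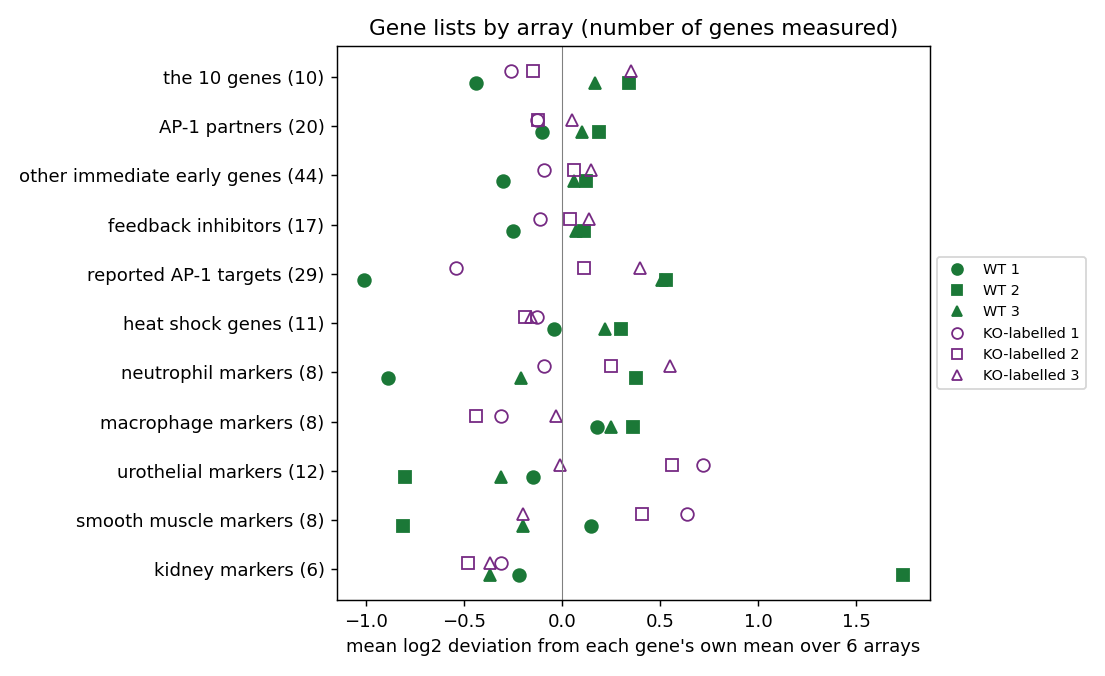
Mean deviation of each gene list from its genes' own 6-array means, in log2 units, by array (filled green for WT, open purple for KO-labelled, symbol by replicate), with the number of genes measured in brackets. WT replicate 1 is lowest for the 10 genes (-0.44), for reported AP-1 targets (-1.01) and for neutrophil markers (-0.89), and WT replicate 2 is at 1.74 for kidney markers.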

How the data were processed

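RNA of 6 ureter samples (WT and KO, 3 each) was read on 1-colour Agilent arrays, on 1 slide with 1 scan time. Per the file headers, the deposited intensity values come from Agilent Feature Extraction, whose version 12.0.3.1 the submitters' processing notes also name. It subtracted background and detrended each array, left arrays unnormalised against each other and placed probes on mm9. Spots flagged as outliers were dropped and spots of a probe averaged (56605 probes, 0 saturated spots). Log2 processed signals, computed here from the deposited intensity, were centred on each array's 75th percentile (143.7 to 164.9). A probe was kept if flagged above background throughout 1 group or both, with the brightest probe for each gene (22260 genes), named by RefSeq accession (GRCm38.p6, 35405 probes) or else by the file. Of the 15 probes of the 10 genes, 13 cleared background on all 6 arrays. The listed symbols Cyr61, Ctgf, Mkl1, Mkl2 and Rfwd2 were updated through RefSeq synonyms.

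Genotype was tested over all genes with limma 3.58.1 in R 4.3.3 (lmFit, eBayes, Benjamini-Hochberg, threshold 0.05). Array correlations across genes were 0.977 to 0.993, and the number of arrays limits the precision. The procedure was tested on simulated data (5 runs, 200 changed genes). It recovered 53.4% of 2-fold and 92.8% of 4-fold changes, with 6.4 false calls on average. The members and lists were chosen with earlier results of these data known, and no set test was run. Named from each list were the 3 genes of lowest p, and for Fos and Fosl1 the 5 nearest profiles, of which 1 each is not reported here. Alternatives covered background, scaling, filters, probe choice, variance model, array weights, replicate block, sex and left-out arrays. The labels number the samples without saying that each is a separate mouse, so p-values measure only the spread between these samples, which may be technical.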

Additional observations from a re-analysis of the deposited data

How the results depend on the processing

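None of the 10 genes passed the threshold under any of the 17 alternatives run, and the lowest adjusted p was 0.138, for Fosb with array weights. Fos, Fosb, Jun and Atf3 were lower in KO-labelled ureters in all 17, Fos by -1.03 to -0.32. The count of genes past the threshold over all genes was 0, but 498 with array weights, which ranged from 0.23 for WT replicate 1 to 6.93 for WT replicate 3, and 1 with the replicate block. The replicate block changed no call among the 10 genes. Deviations of same-numbered arrays correlated at 0.53, -0.15 and -0.03, so the numbers were not taken to pair the samples, and 1 of the 3 numbers was its own best match. Differences changed sign for the other 6 genes, where the cause was not tested. Fosl1 was -0.02 with normexp background, -0.59 with array weights and -0.10 with a sex covariate, Junb -0.19 with array weights and -0.07 with a sex covariate, and Ier3 -0.12 with array weights. Jund was 0.00 with normexp background, 0.01 with quantile normalization, 0.02 with median centring and 0.01 with a sex covariate, and Egr1 was 0.02 with median centring. With each array left out in turn, 0 to 1 genes of the whole array passed, and differences ranged from -0.67 to 0.78 for Fosl1, -0.28 to 0.36 for Junb, -0.05 to 0.05 for Jund, -0.41 to 0.23 for Egr1, -0.02 to 0.41 for Ier2 and -0.12 to 0.86 for Ier3. Over the same left-out arrays, list medians ranged from -0.38 to 0.24 for reported AP-1 targets, -0.03 to 0.14 for other immediate early genes, -0.09 to 0.04 for SRF, TCF and CREB cofactors, -0.15 to -0.08 for bZIP partners and -0.38 to -0.22 for heat shock genes. With 1 female sample, the sex covariate gives that sample no weight in the difference.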
